A study of Mus musculus with 4 samples.

Results

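Tyr, Tyrp1, Dct, Mlana, Mitf, Kit, Sox10 and Ednrb are the core genes of the pigment cell lineage. They were followed in cultured and freshly sorted mouse skin epithelial cells. The members were all non-control probes whose gene name in the scanner files was one of these 8, which gave 12 probes of 39429 on the array and 8 genes of 31896. The 15p RNA came from the 15th passage of serial culture of cells sorted as CD49f+ CD34+. The 0p RNA came from CD49f+ CD34+ cells sorted from primary skin epithelial cells and not yet passaged. Both derived from adult C3H/HeN mice, and the labels list Wnt-3a, a secreted Wnt ligand, as the treatment of both RNAs. Each 10-day culture of the series was grown on collagen type I with Wnt-3a and sorted again for the same pair of surface proteins. There were 4 arrays, a dye-swapped pair for each of 2 biological replicates, and every array held 15p RNA in one dye and 0p RNA in the other. Whether separate animals gave the replicates, or how many animals were pooled, is not in the labels, so p-values measure the spread between these samples only. The array of a replicate with 15p RNA in Cy5 is called its Cy5 array, and the one with 15p RNA in Cy3 its Cy3 array.

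Melanocytes arise from the neural crest and enter the hair follicle, where melanocyte stem cells lie beside CD34-positive keratinocyte stem cells in the bulge. The transcription factors Sox10 and Mitf switch on the enzymes that make melanin (Tyr, Tyrp1, Dct) and melanosome proteins such as Mlana, and the receptors Kit and Ednrb receive survival and migration signals from neighbouring cells. The sort on CD49f and CD34 selects keratinocytes, so the comparison shows which of these lineage genes gave signal in the sorted populations, and whether that signal differed after serial culture. In RNA from a whole population, fewer cells of a type and less RNA per cell cannot be told apart.

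Keratinocyte markers were well above background throughout. All 7 basal keratinocyte markers were detected in both RNAs on all 4 arrays, with 4 positive and 3 negative log2 ratios of 15p over 0p. The brightest were the basal keratin genes Krt5 at 0.00042 and Krt14 at 0.19 ± 0.12 (SD, n = 2; limma adjusted p = 0.749, unadjusted p = 0.0108), Krt14 with array values from -0.18 to 0.73. Of 8 bulge markers 4 were tested, 2 with a positive and 2 with a negative ratio, and Lgr5 and Lhx2 were above background on no array. The keratin gene Krt15 had a ratio of 0.17 ± 0.033 (limma adjusted p = 0.749, unadjusted p = 0.0101). Krt15 was positive on the Cy5 arrays (0.31 and 0.48) and negative on the Cy3 arrays (-0.012 and -0.093). The CD49f gene Itga6 had 0.025 and Nfatc1 -0.053. Sox9 had -0.38 ± 0.60 (limma adjusted p = 0.749, unadjusted p = 0.0243), with -1.56 on the Cy5 array of replicate 2. Cd34, the marker used for the sort, was well above background on 0 of 4 arrays in 15p RNA and on 1 of 4 in 0p RNA. Across genes, the 15p over 0p ratios of a dye-swapped pair of arrays correlated at -0.55 in replicate 1 and -0.40 in replicate 2, and the replicate means at 0.089. Genes are not independent replicates, so these are descriptions. The Cy5 array of replicate 2 stood apart, with an SD of its log2 ratios of 0.29 against 0.13 to 0.14 on the other arrays. Without it, 0 member genes and 0 genes of the pigment pathway lists were called by limma, among 88 called of 17376 genes.

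Detection was judged by the scanner software's flag for a spot well above background. In 15p RNA 3 of the 8 genes (37.5%) were above background on all 4 arrays, namely Tyr, Mlana and Mitf. In 0p RNA there were 4 of 8 (50%), with Sox10 in addition. Of all 31896 gene names on the array, 53.2% met this in 15p RNA and 53.9% in 0p RNA, so the members' shares were no higher than those of all genes. On at least 1 array, 5 members were detected in 15p RNA and 6 in 0p RNA, against 67.8% and 70.6% of all genes. Tyrp1 and Kit were above background on no array in either RNA. Of the 153 negative control spots, the 95th percentile lay between 54.8 and 68.6 in the 15p channel and between 53.6 and 85.5 in the 0p channel, in scanner units of raw mean intensity. The 85.5 belongs to the Cy5 array of replicate 2.

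**Figure D1:**
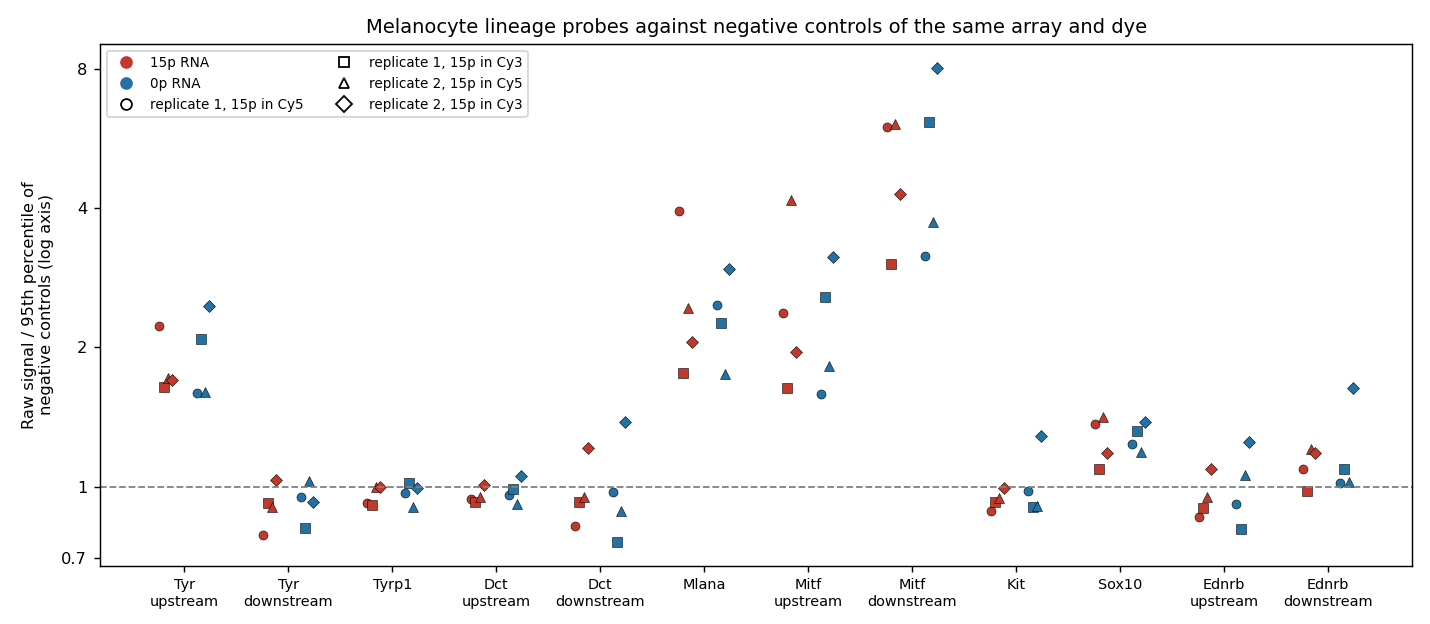
Raw signal of each of the 12 member probes divided by the negative controls' 95th percentile on the same array and dye (log axis), with 15p RNA left of 0p RNA and 1 symbol per array. The Tyr upstream probe, Mlana and both Mitf probes lie above the dashed line at 1 on every array in both RNAs, and Sox10 lies just above it. The Ednrb downstream probe lies above it on 4 arrays in 0p RNA, up to 1.63, and on 3 in 15p RNA. Tyrp1, Dct, Kit, the Tyr downstream probe and the Ednrb upstream probe lie mostly near or under the line. In 0p RNA of the Cy3 array of replicate 2, the Dct downstream probe reaches 1.38, Kit 1.29 and the Ednrb upstream probe 1.25.

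In what follows, the 4 values of an RNA stand in the order Cy5 array and Cy3 array of replicate 1, then Cy5 array and Cy3 array of replicate 2. Raw signals of the 2 dyes are not on one scale, so levels are compared with the background of the same dye and differences only through the normalised log2 ratio.

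Tyr encodes tyrosinase, the enzyme of the first and rate-limiting step of melanin synthesis. It had 2 probes that read different ends of the transcript, and their sequences are shown because only one of them gave signal. The upstream probe starts at transcript position 954 and lies at chr7:94632414-94632473 on the minus strand of mm9. The downstream probe starts at position 2897 and lies at chr7:94576265-94576324, also on the minus strand.
Tyr upstream probe: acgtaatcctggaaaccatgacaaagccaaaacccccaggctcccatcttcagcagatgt
Tyr downstream probe: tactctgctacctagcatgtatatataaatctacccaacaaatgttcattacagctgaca
The GC content of the upstream probe is 50% and that of the downstream probe 35%. The longest run of letters that either shares with a probe of another gene on the array is 13 bases.

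The upstream Tyr probe read 135, 97.1, 93.9 and 117 in 15p RNA, against 85.3, 130, 137 and 142 in 0p RNA. It was well above background in both RNAs on all 4 arrays. The downstream probe, spotted 10 times on each array, averaged 47.8, 54.4, 49.6 and 71.1 in 15p RNA, against 50.8, 50.7, 88.1 and 53.3 in 0p RNA. Over all arrays 1 of its 40 spots was well above background in 15p RNA and 2 of 40 in 0p RNA. All of these were irregular spots, which the averages leave out. Tyr was thus detected on all arrays through its upstream probe alone. What sets the probes apart was not tested.

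The upstream probe gave a mean log2 ratio of 15p over 0p of -0.012 ± 0.16 (SD, n = 2 replicates; 95% confidence interval -0.16 to 0.13; limma adjusted p = 0.974). Replicate 1 gave 0.10 and replicate 2 gave -0.12. The arrays gave 0.041, 0.16, -0.28 and 0.036, so the negative value rested on the Cy5 array of replicate 2, and without it the ratio was 0.069. The arrays spread over 0.45, more than the mean ratio of Tyr.

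**Figure D2:**
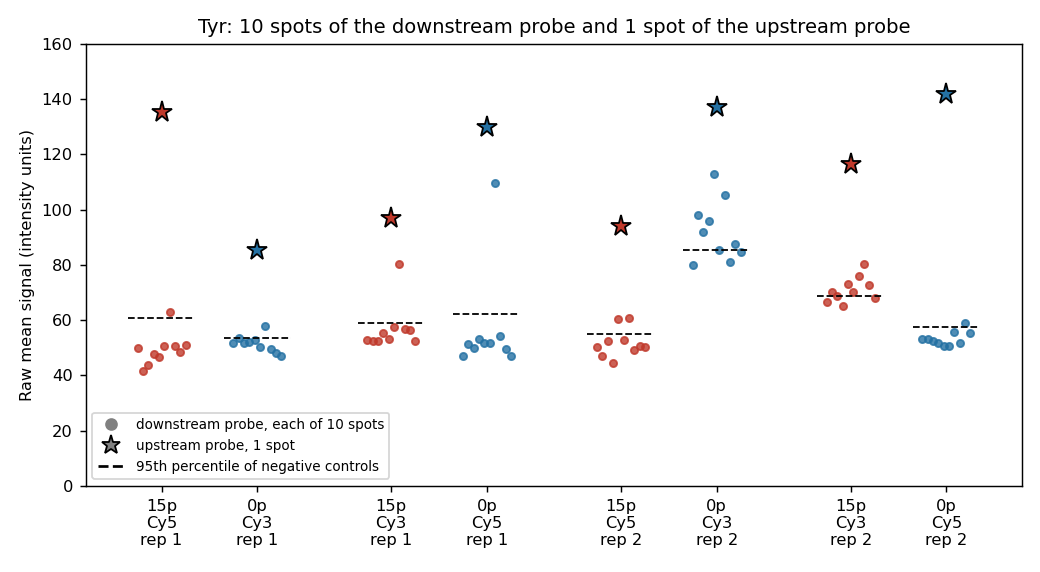
Raw mean signal in intensity units of the 1 spot of the Tyr upstream probe (stars) and the 10 spots of the downstream probe (circles) on each of the 4 arrays, with 15p RNA (red) left of 0p RNA (blue) and dashes at the negative controls' 95th percentile. The stars lie between 85.3 and 142, all above their dash, and the circles range from 41.5 to 113, most of them near or under theirs. The 113 is an irregular spot.

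Tyrp1 stabilises tyrosinase and acts in a late step of eumelanin synthesis. Its only probe (chr4:80497524-80497583, plus strand, mm9) read 56.0, 54.0, 54.7 and 68.6 in 15p RNA, against 51.9, 63.2, 77.5 and 57.4 in 0p RNA. None of these values was well above background, so the ratio of Tyrp1 was not tested.

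Dct, dopachrome tautomerase, acts after tyrosinase and is also an early marker of melanoblasts. Its 2 probes overlap by 44 bases, shown in capitals, so they are readings of nearly the same stretch. They lie at chr14:118412029-118412088 and chr14:118412013-118412072 on the minus strand of mm9.
Dct upstream probe: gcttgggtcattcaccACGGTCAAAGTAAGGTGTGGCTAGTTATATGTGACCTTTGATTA
Dct downstream probe: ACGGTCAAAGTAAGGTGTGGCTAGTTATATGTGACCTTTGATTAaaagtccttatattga
The upstream probe read 57.3, 54.7, 52.0 and 69.2 in 15p RNA, against 51.5, 61.5, 78.3 and 60.9 in 0p RNA, and was above background on no array. The downstream probe read 50.02, 54.7, 52.2 and 83.4 in 15p RNA, against 52.1, 47.2, 75.6 and 79.4 in 0p RNA. Its 83.4 and 79.4, both from the Cy3 array of replicate 2, were called above background. Since the upstream probe shares 44 bases with it and was not above background on that array, the probes disagree there.

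Mitf binds an E-box in the promoters of pigment enzymes that is extended at its start, the M-box. The letters TCATGTG, or CACATGA on the other strand, were looked for in the RefSeq promoter windows of the GRCm38.p6 build, from 250 bases before to 50 bases after each gene start. A window was on hand for 6 of the 8 genes, and it held the motif for Tyr, Tyrp1 and Dct. It was in 0 of 3 windows of Mitf, 0 of 2 of Kit and 0 of 1 of Ednrb. Among all 32851 windows 3.77% held these letters, and 14.2% held the shorter core CATGTG. The stretches around the matches of the pigment enzymes are shown because these enzymes are known targets of Mitf, with the motif in capitals and positions in GRCm38.p6.
Tyr, chr7:87493503-87493559, minus strand: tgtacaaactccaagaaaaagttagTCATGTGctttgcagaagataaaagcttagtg
Tyrp1, chr4:80834141-80834197, plus strand: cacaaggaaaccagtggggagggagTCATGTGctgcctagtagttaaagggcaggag
Dct, chr14:118052366-118052422, minus strand: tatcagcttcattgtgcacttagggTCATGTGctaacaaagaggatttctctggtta
The motif starts 22 bases before the gene start of Tyr, 47 before that of Tyrp1 and 151 before that of Dct. A match of the other strand lies 232 bases before the start of Dct. Such a match describes the letters and does not show binding.

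Mlana, also called Mart1, is a melanosome membrane protein needed for the maturation of the fibrous protein Pmel. Its probe lies at chr19:29782737-29782796 on the plus strand of mm9. It is shown because, of the 4 tested members, Mlana alone kept the sign of its ratio in every alternative run.
Mlana probe: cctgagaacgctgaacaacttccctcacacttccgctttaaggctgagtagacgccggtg
It read 240, 104, 134 and 141 in 15p RNA, against 132, 140, 150 and 171 in 0p RNA, and was above background on all 4 arrays in both. The 240, on the Cy5 array of replicate 1, was the highest raw value. It was read in Cy5, so it is not compared with the values read in Cy3. The mean log2 ratio was 0.083 ± 0.020 (SD, n = 2; interval -0.038 to 0.20; limma adjusted p = 0.789), with 0.097 in replicate 1 and 0.068 in replicate 2. By array it was 0.033, 0.16, -0.066 and 0.20, a spread of 0.27 that the SD of the replicate means leaves out. Mlana was higher in 15p cells on 3 of 4 arrays and did not pass the test. Its ratio also differed by dye, with a mean of -0.016 on the Cy5 arrays and 0.18 on the Cy3 arrays.

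Mitf is the transcription factor that directs the melanocyte fate and the expression of the pigment enzymes, and it is also made in other cell types. Its 2 probes start at transcript positions 2038 and 4766, at chr6:97968501-97968560 and chr6:97971229-97971288 on the plus strand of mm9. They are shown because both gave signal and their mean ratios differed in sign.
Mitf upstream probe: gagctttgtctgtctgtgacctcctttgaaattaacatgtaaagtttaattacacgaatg
Mitf downstream probe: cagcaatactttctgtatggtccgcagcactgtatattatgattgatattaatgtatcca
The downstream probe read 365, 179, 332 and 294 in 15p RNA, against 169, 382, 319 and 464 in 0p RNA. The upstream probe read 144, 96.5, 228 and 134 in 15p RNA, against 85.0, 160, 156 and 181 in 0p RNA. Both were well above background on all arrays in both RNAs.

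The downstream probe, the brighter and the one used for the gene, gave a mean log2 ratio of -0.044 ± 0.031 (SD, n = 2; interval -0.17 to 0.077; limma adjusted p = 0.871). Its arrays gave 0.17, -0.22, -0.11 and -0.019. The upstream probe gave 0.11 ± 0.24 (interval -0.074 to 0.29; limma adjusted p = 0.812 among 21660 probes), and its arrays gave 0.087, -0.21, 0.58 and -0.037. The upstream ratio was positive on both Cy5 arrays and negative on both Cy3 arrays. The probes of Mitf differed in sign of the mean ratio, and neither passed the test.

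Sox10 is the neural crest transcription factor that activates Mitf and Dct, and it also marks Schwann cells. Its probe lies at chr15:78985518-78985577 on the minus strand of mm9 and is shown because Sox10 was the member that carried the flag on every array in 0p RNA but not in 15p RNA.
Sox10 probe: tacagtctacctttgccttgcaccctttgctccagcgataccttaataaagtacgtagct
It read 83.0, 64.4, 77.7 and 81.1 in 15p RNA, against 66.2, 81.8, 101 and 79.7 in 0p RNA. The flag was set on all 4 arrays in 0p RNA but on 2 in 15p RNA, the Cy5 arrays. Measured instead against the 95th percentile of the negative controls, Sox10 was above it on all 4 arrays in both RNAs. The mean log2 ratio was -0.0063 ± 0.037 (SD, n = 2; interval -0.13 to 0.12; limma adjusted p = 0.983), from array values of -0.0069, -0.058, 0.078 and -0.039. The RNAs differed in the flag, while the ratio did not pass the test.

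Kit is the receptor tyrosine kinase for Kitl (stem cell factor), needed for the survival and migration of melanoblasts, and it is also a mast cell marker. Its probe (chr5:76052394-76052453, plus strand, mm9) read 54.0, 54.8, 51.8 and 68.1 in 15p RNA, against 52.3, 56.3, 77.6 and 74.3 in 0p RNA. None of these was called above background. Measured against the 95th percentile of the negative controls, Kit was above it on 0 arrays in 15p RNA and on 1 in 0p RNA.

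Ednrb, the endothelin receptor that binds Edn3, acts in the spread of melanoblasts and is also made by endothelial cells. Its upstream probe (chr14:104220870-104220929, minus strand, mm9) read 52.4, 53.1, 52.2 and 75.1 in 15p RNA, against 49.2, 50.3, 90.4 and 71.9 in 0p RNA, never above background. The downstream probe (chr14:104214484-104214543, same strand) read 66.5, 57.7, 66.0 and 81.1 in 15p RNA, against 54.6, 68.0, 87.4 and 94.1 in 0p RNA. Of these values 94.1 alone, in 0p RNA of the Cy3 array of replicate 2, was called above background. Measured against the 95th percentile of the negative controls, the downstream probe was above it on 3 arrays in 15p RNA and on 4 in 0p RNA. The upstream probe was above it on 1 array in 15p RNA and on 2 in 0p RNA. Neither receptor passed the filter on dim probes, so neither was tested with the other members.

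Of the 8 genes, 4 passed the filter on dim probes and were tested (Tyr, Mlana, Mitf and Sox10), as 54.5% of all gene names did. Sox10 passed through the 0p RNA alone. None of the 4 was called higher or lower in 15p than in 0p cells by limma at an adjusted p under 0.05, and 0 had an unadjusted p under 0.05. Over all 17376 tested genes 0% were called higher and 0% lower, the lowest adjusted p being 0.749, while 2.92% were higher and 3.38% lower at an unadjusted p under 0.05. The median ratio of the 4 members was -0.0092, with 1 positive and 3 negative, against a median of 0.0025 over all tested genes. Their intervals reach from -0.17 to 0.20 on the log2 scale, after an offset that pulls ratios of dim probes towards 0. A p above the threshold does not show that the genes were alike in both RNAs.

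**Figure D3:**
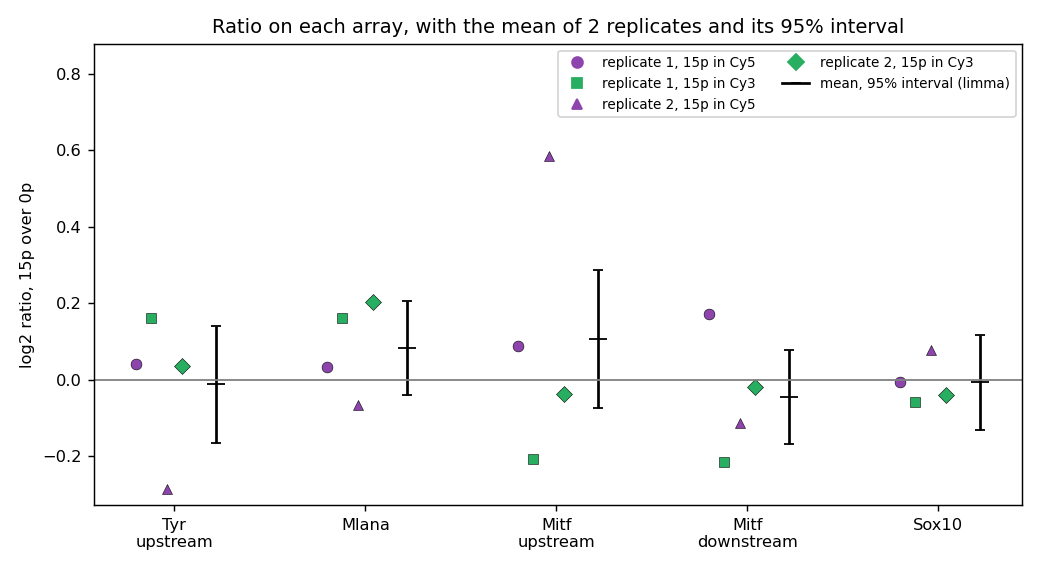
Log2 ratio of 15p over 0p of the tested member probes on each array, with the mean of the replicates and its 95% confidence interval. The Cy5 and Cy3 arrays fall on either side of 0 for the Mitf upstream probe, and the intervals of all probes include 0.

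The tested genes nearest to each member over the 4 array ratios, by Euclidean distance, were Lrrc59 (0.023) and Gm6729 (0.042) for Tyr, and Ap4s1 (0.012) and Mup2 (0.032) for Mlana. For Mitf they were Gnptab (0.031) and Mlf2 (0.039). For Sox10 they were Zfp846 (0.018) and a probe without a gene name (0.024). Within a distance of 0.2 lay 909 of the other 17375 genes for Tyr, 1036 for Mlana, 1164 for Mitf and 4180 for Sox10. Each member thus had many genes close to it on this measure.

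The other genes of the pigment pathway, 67 in 4 lists, were on the array for 65 and tested for 38 (58.5%). Of all gene names 54.5% were tested. Of the 38, 0 were called higher and 0 lower. As 0 of all 17376 tested genes were called, this is not particular to the lists. At an unadjusted p under 0.05, 1 was higher and 2 lower, against 2.92% and 3.38% of all tested genes. The median ratio of the 38 was 0.0093.

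Among 22 genes of pigment enzymes and melanosomes, 16 were tested, 8 with a positive and 8 with a negative ratio. Pmel, which forms the fibrils on which melanin is laid down, read 61.8, 64.4, 65.2 and 87.3 in 15p RNA, against 55.6, 63.4, 104 and 92.0 in 0p RNA. In each RNA this passed the flag on 1 array, and Pmel was not tested. The melanosome transporter genes Slc45a2 and Oca2, the melanosome receptor gene Gpr143 and the melanosome transport gene Mlph were above background on no array. The 16 tested genes of the list were above background on all 4 arrays in both RNAs. One of them, Trpm1, read 2422, 887, 1029 and 928 in 15p RNA, against 1069, 1755, 967 and 1581 in 0p RNA. Its ratio was -0.057 ± 0.14 (SD, n = 2; limma adjusted p = 0.855). Slc24a5, an ion exchanger of the melanosome, was above background throughout and had a ratio of -0.18 ± 0.20 (SD, n = 2; limma adjusted p = 0.749), which came from -0.62 on the Cy5 array of replicate 2, while replicate 1 gave -0.037. Without the Cy5 array of replicate 1 it was called at -0.32. That fit keeps 1 Cy5 array, so the spread it tests against comes from the Cy3 arrays alone. Its calls do not measure the spread between replicates. Hps1 and Lyst, which act in the making of lysosome-related organelles, had ratios of 0.12 ± 0.037 and 0.099 ± 0.19, and the melanosome glycoprotein gene Gpnmb 0.094 ± 0.027. Lyst rested on 0.39 on the Cy5 array of replicate 2, while replicate 1 gave -0.032. It too was called without the Cy5 array of replicate 1, at 0.21, with the same limit. With all arrays none of these genes passed the test.

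Of 17 signals to melanocytes and their receptors on the array, 7 were tested, 3 with a positive and 4 with a negative ratio. Kitl, the ligand of Kit made by keratinocytes, read 291, 177, 277 and 243 in 15p RNA, against 175, 307, 253 and 368 in 0p RNA, with a ratio of -0.035 ± 0.036 (SD, n = 2; limma adjusted p = 0.893). Its receptor Kit was called above background on no array, as described above. Edn3, the ligand of Ednrb, and the related receptor gene Ednra were above background on no array. Mc1r, the receptor for the melanocyte-stimulating hormone, was above background on 0 arrays in 15p RNA and on 2 in 0p RNA. Its signals were 74.8, 60.5, 61.9 and 80.2 in 15p RNA, against 57.0, 76.0, 89.4 and 80.0 in 0p RNA. The tested genes with the largest ratios were the hepatocyte growth factor receptor gene Met (0.18 ± 0.21), Atrn (-0.086 ± 0.053), which acts in pigment type switching, the endothelin-converting enzyme gene Ece1 (0.084 ± 0.063) and Erbb3 (0.058 ± 0.089), and none passed. Met rested on 0.60 on the Cy5 array of replicate 2, while replicate 1 gave 0.032. Without the Cy5 array of replicate 1 it was called at 0.32. The spread which that fit tests against comes from the Cy3 arrays alone.

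Of 19 transcription factors and partners 10 were tested, 5 with a positive and 5 with a negative ratio. Pax3, which acts with Sox10 on Mitf, read 704, 413, 715 and 637 in 15p RNA, against 365, 739, 719 and 973 in 0p RNA. Its ratio was -0.055 ± 0.097 (SD, n = 2; limma adjusted p = 0.850). Pax3 was thus above background on every array in both RNAs. The Mitf relatives Tfe3 and Tfeb had ratios of 0.046 ± 0.011 and 0.12 ± 0.068. Tfe3 was positive on the Cy5 arrays (0.11 and 0.13) and negative on the Cy3 arrays (-0.034 and -0.025). Sox9, a regulator of hair follicle stem cells as well as of pigment cells, had the largest ratio of the pathway lists, -0.38 ± 0.60, with array values of 0.14, -0.059, -1.56 and -0.053. It rested on the Cy5 array of replicate 2, and replicate 1 gave 0.038. Sox9 was called with the replicate block on the 15p over 0p ratio (limma adjusted p = 0.00585), which called 60 of 17376 genes. That block takes the difference between the replicates out of the spread that the test uses, so this p does not measure it. Without the Cy5 array of replicate 1, Sox9 was called at -0.81 and Tfeb at 0.20. The spread which that fit tests against comes from the Cy3 arrays alone. Ctnnb1, which encodes beta-catenin, had a ratio of -0.095, and Usf1, an E-box-binding factor, 0.075. With the replicate means of all arrays none of these genes passed the test.

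Of 7 survival and cycle genes on the array that are named as Mitf targets 5 were tested, 4 positive and 1 negative. The largest ratios were those of Hif1a (-0.10 ± 0.093), the oxygen-sensing factor, Dicer1 (0.056), which cuts small RNA precursors, Bcl2 (0.038), an inhibitor of cell death, and Cdk2 (0.027), a cell cycle kinase. None passed.

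**Figure D4:**
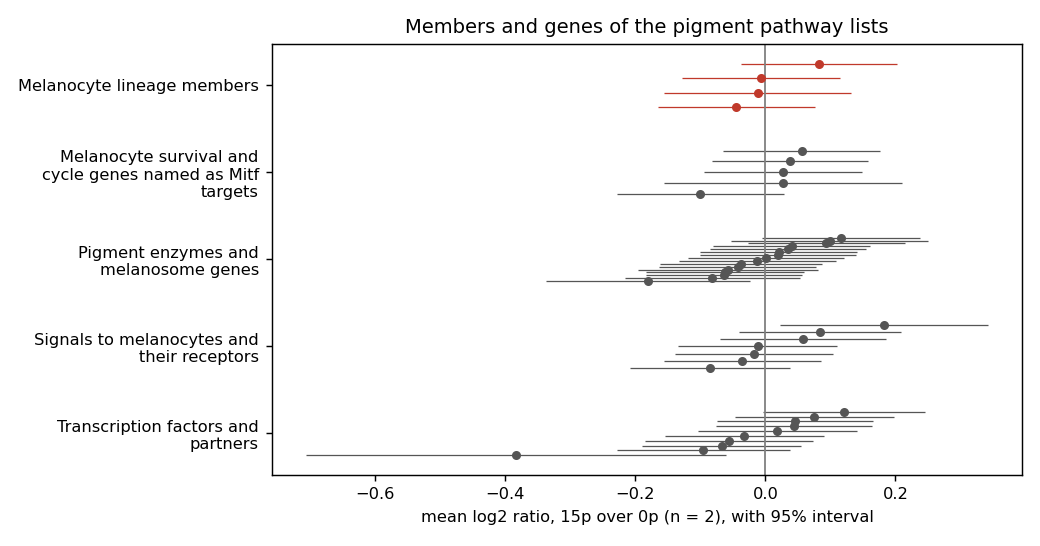
Mean log2 ratio of 15p over 0p (points, n = 2 replicates) with its 95% confidence interval from limma (lines) for the 4 tested members in red and the 38 tested genes of the pathway lists in grey. The members lie between -0.044 and 0.083, every list has ratios on both sides of 0, and Sox9 lies farthest out at -0.38.

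Several member genes also mark cells other than melanocytes, so markers of those cells were read on the same arrays. Of 10 Schwann cell markers 6 were tested, 2 with a positive and 4 with a negative ratio, and S100b, Cdh19 and Foxd3 were above background on no array. The tested ones with the highest signal were the myelin gene Mbp (-0.00030) and Prx (0.064), and the largest ratio was that of Ncmap, -0.12 ± 0.031 (SD, n = 2; limma adjusted p = 0.749), a gene chosen after its values were seen. Of 10 mast cell markers 8 (Kit, Cpa3, Cma1, Fcer1a, Mcpt4, Ms4a2, Tpsab1 and Hdc) were above background on no array, while Tpsb2 (-0.072) and Mrgprb1 (0.037) were tested.

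Of 7 endothelial markers 4 were tested, with Kdr at -0.077, Flt1 at -0.13, Eng at 0.088 and Pecam1 at 0.060, and the endothelial markers Cdh5 and Tek were on no array above background. Of 6 fibroblast markers 2 were tested, Twist2 (0.030) and Col3a1 (0.088). Of 6 immune cell markers 4 were tested, 2 positive and 2 negative, with Itgam at 0.0030 and Cd3e at -0.043. None of these lists held a called gene. The part that such cells have in the signals of Mitf, Sox10 and Ednrb was not tested.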

How the data were processed

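RNA of 15p and 0p cells was compared on 4 Agilent 2-colour arrays, a dye-swapped pair for each of 2 biological replicates, with directions taken from the dyes in the labels. Per the labels' protocols, 200 ng of Trizol-purified RNA was labelled and 825 ng of each cRNA hybridised. Intensity of each spot and of its local background was extracted by the authors with Agilent Feature Extraction 10.7.3.1, per the file headers. They also deposited a log10 ratio of the processed signals, Cy5 over Cy3. The flag that marks a spot as well above background was set by the same software, per the file headers. The deposited value table holds these log10 values too, with a median of 0 in each column and a largest difference of 0.0045. It was not turned for the dye swap, and its scale was found by that comparison.

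In R 4.3.3 with limma 3.58.1 (data.table package, release 1.17.8, for reading), intensities were corrected with normexp (offset 50) and normalised by loess within each array, control spots having no weight. Control and irregular spots were left out (154 to 286 of 43020 an array), and 0 were saturated. Repeat spots of a probe were averaged. A probe counted as well above background on an array when at least 50% of its spots carried the flag, and it was kept when this held on all 4 arrays in either RNA (21660 probes). A gene was represented by its brightest probe. RefSeq names of the GRCm38.p6 assembly matched 26055 probes. Probe positions are those of the files (mm9).

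All ratios were expressed as 15p over 0p, and each dye-swapped pair was averaged. The 2 values were tested against 0 with limma, two-sided, with Benjamini-Hochberg adjustment over 17376 genes at 0.05 (prior degrees of freedom 8.88, residual 1). The number of arrays limits the precision: the median 95% confidence interval of a gene reached 0.12 to either side on the log2 scale. The fit was tested on simulated data. Titles pair the arrays of a replicate as dye swaps. Each array's ratios were also taken as deviations from the mean of the arrays with the same dye orientation. Between the arrays of a replicate these deviations correlated at -0.26. The ratios thus give no sign of the titled pairing, as the deviations tended to opposite directions within a pair. With 2 replicates, arrays of different replicate numbers then correlate with the opposite sign. The pairing was taken from the titles, and the tests rest on it. What lies behind this correlation was not tested. Each replicate lay on its own slide, so the slide cannot be told apart from the replicate.

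The members, gene lists and tests were chosen with earlier results of these data known. Named are all members, the called genes of each pathway list or otherwise up to 4 with the largest ratios, Pmel, Kitl, Edn3, Ednra, Mc1r, Pax3, Tfe3 and Tfeb, up to 2 of the brightest tested markers of each other cell type, and the 2 nearest genes of each tested member. Other genes were named after their values were seen, because they were above background on no array or to give the other tested markers of a list. Trpm1 was also named after its values were seen, for its signal on every array. Alternatives changed background correction, normalisation, input values, the filter, the probe rule, the replicate block and the arrays used.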

Additional observations from a re-analysis of the deposited data

Results flagged for a closer look

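For the Mitf upstream probe the mean log2 ratio of 15p over 0p on the Cy5 arrays exceeded that on the Cy3 arrays by 0.46. Both Cy5 arrays were positive and both Cy3 arrays negative. The difference was not tested. Opposite signs by dye orientation were found for 5605 of 17376 tested genes (32.3%).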

How the results depend on the processing

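Members called by limma numbered 0 under all 15 alternatives that gave a test. Where the flag was required in both RNAs, Sox10 dropped out and 3 members were tested. Called genes were 0 under 9 of 15. They were 1 with no filter on dim probes (31896 genes), 60 with the replicate block on the 15p over 0p ratio and a dye term, and 60 with crossed pairing, which is the same fit and was chosen after seeing the data. With 1 array left out they ranged from 0 to 3120: 3120 without the Cy5 array of replicate 1, 88 without the Cy5 array of replicate 2, and 1 or 0 without a Cy3 array. With an array left out, 1 dye orientation keeps a single array, so the spread that the test uses comes from the other orientation alone. Such calls do not measure the spread between replicates. The replicate block on the Cy5 over Cy3 ratio repeated the values of the report. Called pathway genes were 1 with the replicate block on the 15p over 0p ratio and 1 with crossed pairing (Sox9, limma adjusted p = 0.00585), and 0 to 7 with an array left out, the 7 without the Cy5 array of replicate 1 (Ap3b1, Cdkn2a, Lyst, Met, Slc24a5, Sox9 and Tfeb). The replicate block on the 15p over 0p ratio takes the difference between the replicates out of the spread that the test uses. Its p-values therefore do not measure that difference. Why the counts differ with the array left out was not tested. With 1 replicate left there is no test.

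Members detected on all arrays in 15p RNA became 5 with the positive-and-significant flag, against 4 in 0p RNA, which turns the order of the RNAs, and 5 when 1 array sufficed, against 6 in 0p RNA. Above the negative controls' 95th percentile were 4 in 15p RNA and 5 in 0p RNA. Mlana kept its sign under 17 of 17 alternatives (0.058 to 0.12), which all draw on the same 4 arrays and are not independent. The ratio of Sox10 became 0.0086 with median centring and that of Mitf 0.031 with the mean of its probes. With an array left out, Sox10 ranged from -0.028 to 0.015, Mitf from -0.12 to 0.027 (0.0045 without the Cy3 array of replicate 1) and Tyr from -0.093 to 0.069 (0.019 without the Cy3 array of replicate 2). Sox10 was -0.12 with Agilent's processed signals. Without the filter, the untested Dct had a ratio of 0.087, Ednrb 0.000027, Kit -0.045 and Tyrp1 0.0050, all from probes that did not pass the filter. Signals near background limit the ratios of Sox10 and Tyr.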
